A study of Mus musculus with 8 samples.

Results

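The glucocorticoid receptor Nr3c1 and 9 of its well-known target genes, Fkbp5, Tsc22d3, Dusp1, Zbtb16, Klf9, Sgk1, Ddit4, Mt1 and Mt2, were followed in mouse thyroids exposed to 99mTcO4-. The members were taken by gene name, with every probe the array carries for them, which gave 12 probes for 10 genes out of 55681 probes and 21021 RefSeq genes. Technetium-99m pertechnetate is a gamma-emitting tracer that thyroid cells take up through the sodium/iodide symporter. The 4 exposed thyroids (S539, S588, S589 and S590) had absorbed 30 Gy, and RNA was taken 24 hours after intraperitoneal administration. The 4 control thyroids (Ct1 to Ct4) are called untreated in one place of the study and saline-treated in another. All mice were female Balb/c mice aged 8 weeks, and each RNA was hybridised to its own one-colour Agilent array. Thyroid doses in the study were read from imaging under isoflurane anaesthesia, and the sources used here do not say whether control mice were imaged or at which hour thyroids were taken. Whole thyroid tissue was measured, so fewer cells of a type and less RNA per cell cannot be told apart.

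The glucocorticoid receptor is a nuclear receptor that rests in the cytoplasm in a complex with heat shock proteins and immunophilins. When it binds corticosterone, the main glucocorticoid of mice, it moves to the nucleus and binds palindromic response elements near its target genes, many of which restrain inflammation, growth signalling or the receptor itself. Most of these genes also answer other signals: Ddit4 is induced by DNA damage, hypoxia and energy stress, Sgk1 by osmotic stress, Dusp1 by growth factors, and the metallothioneins by metals.

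Values are log2 background-subtracted signals after quantile normalization, and differences are exposed minus control on that scale. A gene was called when its adjusted p in limma, a moderated linear model fitted over all probes, was under 0.05. Every member probe was well above background on each of the 8 arrays, and no member probe was saturated. Between 60.5% and 77.3% of spots per array were well above background. The exposed arrays took the first positions of the single slide, which leaves slide position and exposure confounded: they cannot be told apart. The thyroid label was borne out by thyroglobulin (Tg), whose log2 signal was 18.85 ± 0.10 (SD, n = 4) in controls and 18.90 ± 0.16 in exposed thyroids. Cdkn1a, the p53-induced cell cycle inhibitor, served as a check of the exposure labels and rose from 11.22 ± 0.44 to 15.05 ± 0.48 (limma adjusted p = 0.0032). Markers of T cells and thymocytes stood apart in the control thyroids Ct1 and Ct2. The log2 of their summed signal was 16.36 in Ct1 and 15.43 in Ct2, against 12.85 and 12.65 in Ct3 and Ct4 and 12.71 to 13.42 in the exposed thyroids. Of these 12 markers, 5 exceeded background clearly on each of the 8 arrays.

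Of the 10 genes, Ddit4 was the one called, and its signal was about 5-fold higher in the exposed thyroids. All 10 genes had a log2 difference above 0, with a median of 0.77, where 46.4% of all RefSeq genes were above 0 and their median was -0.03. In 5 genes (Ddit4, Zbtb16, Tsc22d3, Klf9 and Fkbp5) every exposed thyroid lay above every control, which was so for 5.44% of RefSeq genes, while 6.21% lay wholly below and 11.7% did not overlap in one direction or the other. Over all probes 435 were called (0.781%), 0.587% higher and 0.194% lower, and over RefSeq genes 1.2% were called, 0.904% higher and 0.295% lower, against 1 of 10 members higher and 0 lower. At an unadjusted p under 0.05 limma gave 7 of 10 members as higher, against 6.47% of RefSeq genes, and 0 as lower, against 8.13%. These counts describe a list chosen with earlier results of the same arrays known, and no test was made over it.

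**Figure D1:**
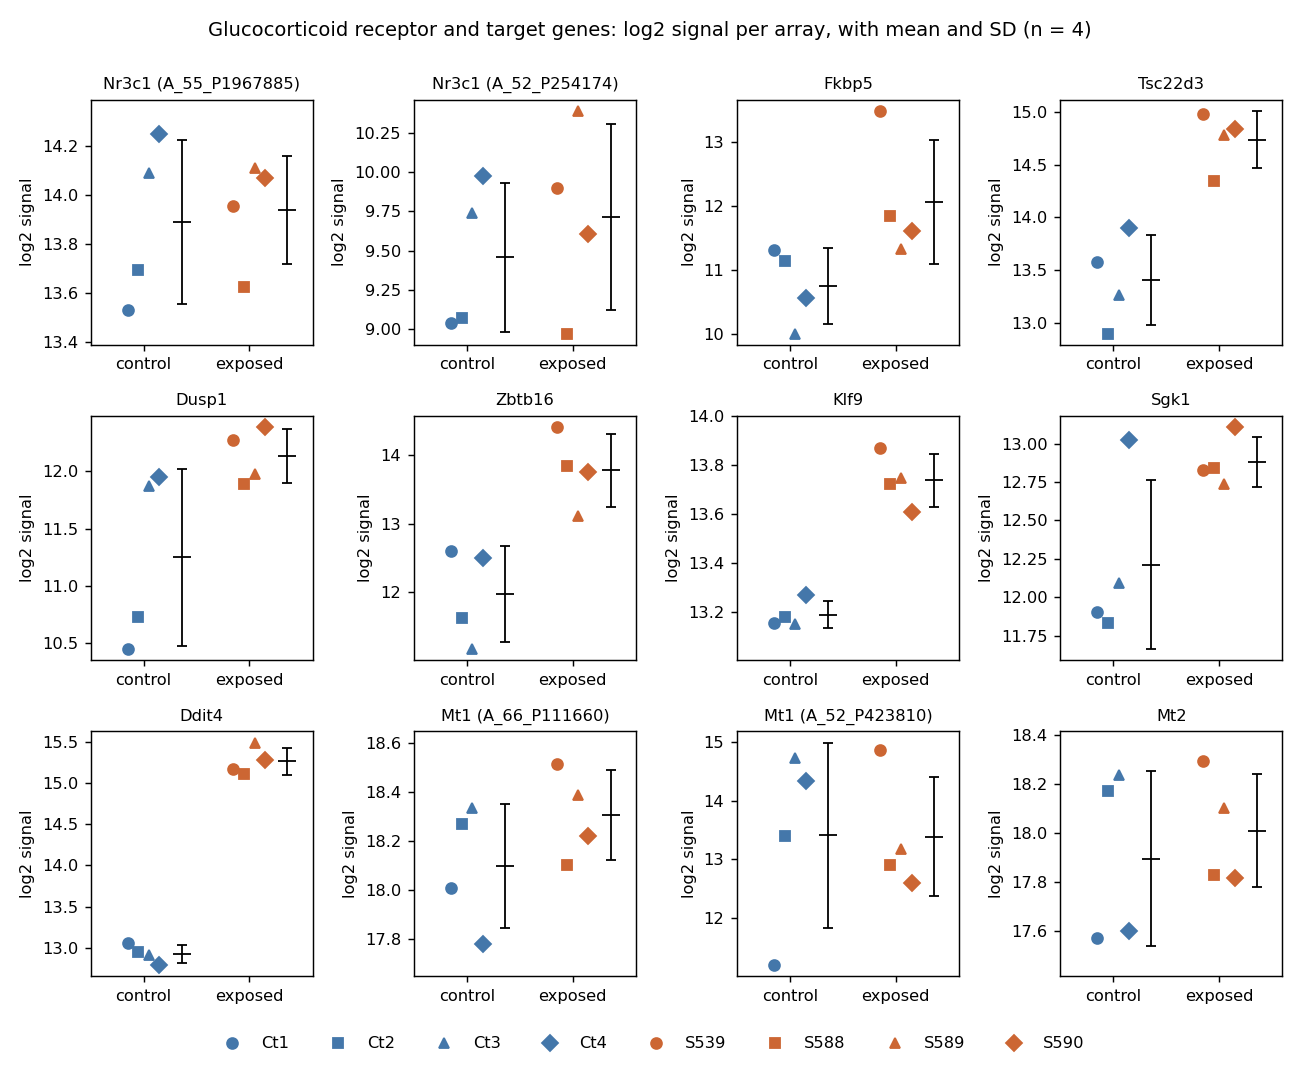
Log2 signal (vertical axis, scaled for each panel) of the 12 member probes in the 4 control and 4 exposed thyroids, 1 point an array with its own marker, and the mean with SD (n = 4) in black. The groups lie apart for Fkbp5, Tsc22d3, Zbtb16, Klf9 and Ddit4, while both Nr3c1 probes, both Mt1 probes, Mt2, Dusp1 and Sgk1 overlap.

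Nr3c1, which encodes the receptor, lies on chromosome 18 and is read by a pair of probes. With the brighter one (A_55_P1967885) the control thyroids Ct1 to Ct4 gave 13.53, 13.70, 14.09 and 14.25, and the exposed thyroids S539, S588, S589 and S590 gave 13.96, 13.63, 14.11 and 14.07. The exposed values lay inside the range of the controls. The difference was 0.05 ± 0.21 (SE), with a 95% interval from -0.43 to 0.53 (limma adjusted p = 0.942). As a fold, that interval ran from 0.743 to 1.44. The dimmer probe (A_52_P254174) ranged from 9.04 to 9.98 in controls and from 8.97 to 10.39 in exposed thyroids, a difference of 0.26 ± 0.35 (adjusted p = 0.785). On both probes Ct1 and Ct2 were the lowest controls and S588 the lowest exposed thyroid.

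Genes for the proteins that hold, charge or assist the receptor had mostly small differences in mRNA. Of 19 such genes on a list of receptor machinery, limma called 0, and their median difference was 0.10. At an unadjusted p under 0.05 it gave 3 as higher and 0 as lower, against 6.47% and 8.13% of RefSeq genes. Unlike in Nr3c1, every exposed thyroid lay above every control in 3 of the 19, against 5.44% of RefSeq genes. The largest rise in value was that of H6pd, which supplies the cofactor for the glucocorticoid-regenerating enzyme, at 0.51 (adjusted p = 0.296). The largest fall in value was that of Smarca4, a chromatin remodeller that works with the receptor, at -0.36 (adjusted p = 0.476). Hsd11b1, the regenerating enzyme itself, differed by -0.005 and Hsd11b2, which inactivates glucocorticoids, by -0.15. Hsd11b2 was well above background in 0 controls and 2 exposed thyroids, so its difference is one between values near background.

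Fkbp5 is a co-chaperone that lowers the receptor's affinity for hormone and is itself induced by the receptor, which closes a feedback loop. Its probe (chr17:28536060-28536119, mm9, minus strand) gave 11.31, 11.14, 10.004 and 10.55 in Ct1 to Ct4, and 13.49, 11.84, 11.32 and 11.60 in S539, S588, S589 and S590. S539 stood well above the other exposed thyroids, and the lowest exposed value exceeded the highest control by only 0.01. The difference was 1.31 ± 0.51, or 2.48-fold (95% interval 1.09 to 5.63), with a limma adjusted p of 0.367 and an unadjusted p of 0.034. Without S539 the difference was 0.84 (adjusted p = 0.462). In the two-sided exact permutation test over the 70 ways of dividing 4 and 4 arrays, p was 0.0286, the smallest it can give. Without background subtraction the groups overlapped, the lowest exposed value lying below the highest control (difference -0.10).

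Tsc22d3, known as GILZ, is a leucine zipper protein that carries much of the anti-inflammatory action of glucocorticoids. Its probe (chrX:137074094-137074153, mm9, minus strand) gave 13.57, 12.90, 13.26 and 13.90 in the controls, and 14.98, 14.35, 14.78 and 14.84 in the exposed thyroids in the same order of arrays. All 4 exposed values were above all control values, by 0.45 at the nearest. The difference was 1.33 ± 0.25, or 2.52-fold (95% interval 1.69 to 3.74), and the limma adjusted p was 0.0695, outside the threshold. Of 8 other processing settings, 6 brought it past the threshold, with adjusted p-values from 0.0195 to 0.0681 over the 8.

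Dusp1, a phosphatase that switches off the stress-activated MAP kinases, did not separate the groups. The probe, placed by the array file at chromosome 17, 26642526 to 26642536 (mm9, minus strand), gave 10.45, 10.73, 11.88 and 11.95 in the controls and 12.27, 11.89, 11.98 and 12.39 in the exposed thyroids. Ct4 reached the range of the exposed thyroids and Ct3 lay just under it, while Ct1 and Ct2, in which T cell and thymocyte markers were high, were the lowest. The difference was 0.88 ± 0.37 (adjusted p = 0.399), and it was 0.22 when Ct1 and Ct2 were left out. The part of the T cell and thymocyte markers in this result was not tested.

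Zbtb16 encodes the zinc finger transcription factor PLZF, whose mRNA rises sharply after glucocorticoids in many tissues. The probe (chr9:48462419-48462478, mm9, minus strand) read 12.61, 11.62, 11.17 and 12.51 in the controls and 14.42, 13.85, 13.11 and 13.76 in the exposed thyroids. S539 was again the highest, S589 the lowest of the exposed, and the groups lay 0.50 apart. The difference of 1.81 ± 0.40, or 3.503-fold (95% interval 1.85 to 6.65), was the largest after that of Ddit4 and had a limma adjusted p of 0.116. It passed the threshold in 3 of the 8 other settings.

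Klf9, a Krüppel-like factor induced by glucocorticoids and by thyroid hormone, showed the tightest control values of all members. They were 13.16, 13.18, 13.15 and 13.27 (SD 0.06), against 13.87, 13.72, 13.75 and 13.61 in the exposed thyroids, for a probe at chr19:23240410-23240469 (mm9, plus strand). The groups were separate by 0.34. The difference was smaller than for Zbtb16, 0.55 ± 0.12 or 1.46-fold (95% interval 1.21 to 1.78), and its limma adjusted p was about as large, at 0.115. It passed the threshold in 4 of the 8 other settings.

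Sgk1 is the glucocorticoid-regulated kinase that keeps sodium channels at the cell surface. Its probe (chr10:21719507-21719566, mm9, plus strand) gave 11.90, 11.83, 12.09 and 13.03 in the controls and 12.83, 12.84, 12.74 and 13.11 in the exposed thyroids. A single control, Ct4, reached the exposed range, and the other 3 lay below it. The difference was 0.67 ± 0.27 (limma adjusted p = 0.388), and the two-sided exact permutation p was 0.114. With Ct1 and Ct2 left out it was 0.32.

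Ddit4, known as REDD1, restrains the growth-promoting kinase complex mTORC1. Its probe (chr10:59412486-59412545, mm9, minus strand) read 13.06, 12.95, 12.91 and 12.79 in the controls and 15.18, 15.12, 15.49 and 15.28 in the exposed thyroids. Both groups were tight, with SDs of 0.11 and 0.17, and lay 2.06 apart at the nearest. The rise was 2.34 ± 0.14, or 5.07-fold (95% interval 4.05 to 6.33), with a limma adjusted p of 0.0013. By p it was number 8 of all 55681 probes. It stayed past the threshold in all 8 other settings and without any single array, with differences from 2.27 to 2.39. Of 16 other genes around mTORC1, limma called 1, Sesn2, a p53-induced mTORC1 inhibitor, which rose by 1.78 (adjusted p = 0.0142). This call was lost without Ct2, without S590 and without Ct1 and Ct2 together. The other 15 were not called, and the median of the 16 was -0.14, with 6 above 0. Every exposed thyroid lay above every control in 2 of the 16 and below in 1, against 5.44% and 6.21% of RefSeq genes. Ddit4l, the paralogue of Ddit4, differed by -0.28 (adjusted p = 0.808).

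The metallothioneins Mt1 and Mt2, small metal-binding proteins that glucocorticoids and metals both induce, were among the brightest features of the array, ranking 26 and 45 of 55681 probes. The RefSeq probe of Mt1 (chr8:96704165-96704224, mm9, plus strand) gave 18.01, 18.27, 18.34 and 17.78 in the controls and 18.52, 18.10, 18.39 and 18.22 in the exposed thyroids. Mt2 (chr8:96697371-96697430, mm9, plus strand) gave 17.57, 18.17, 18.24 and 17.60, against 18.29, 17.83, 18.10 and 17.82. The groups overlapped in both genes, though with scaling to the 75th percentile they lay apart by 0.094 and 0.085 (differences 0.48 and 0.33, not called). The difference was 0.21 ± 0.18 for Mt1 (adjusted p = 0.65) and 0.12 ± 0.22 for Mt2 (adjusted p = 0.851), with 95% intervals from -0.20 to 0.61 and from -0.38 to 0.61. The other Mt1 probe (chr8:96703844-96703903), which the array file ties to an Ensembl transcript, ranged from 11.20 to 14.73 in controls and from 12.60 to 14.86 in exposed thyroids. Its difference was -0.03 ± 0.83, so the pair of Mt1 probes disagreed in spread more than in difference. Of 10 other genes of the metal response, 0 were called in limma. At an unadjusted p under 0.05, 2 were higher, against 6.47% of RefSeq genes. The largest rise in value was that of Hmox1, the stress-induced haem oxygenase, at 0.81 (adjusted p = 0.0794), which was called in 6 of the 8 other settings (adjusted p = 0.0125 to 0.0373), and the largest fall that of Slc39a14, a zinc and iron importer, at -0.003 (adjusted p = 0.997).

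**Figure D2:**
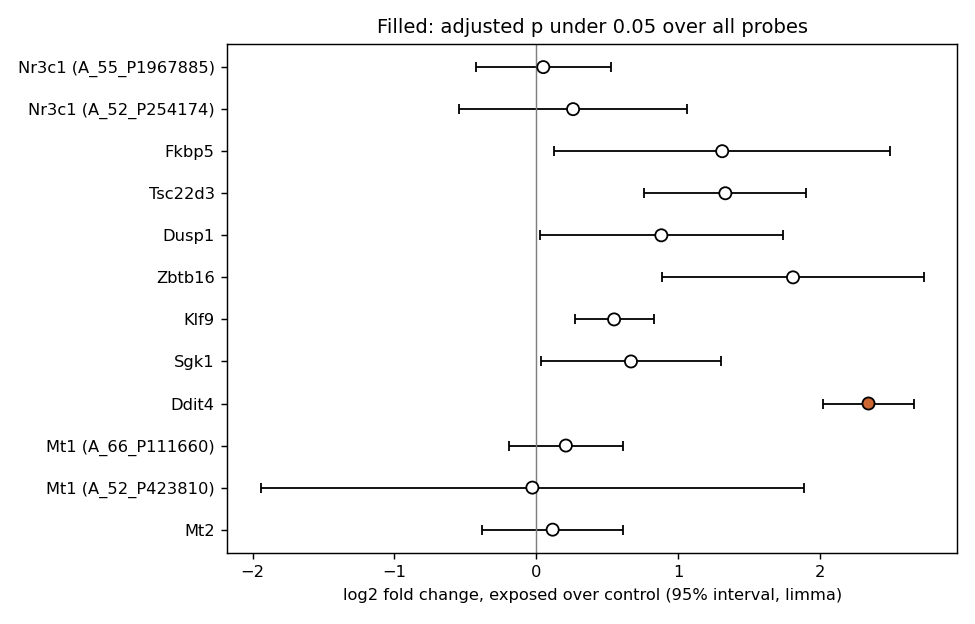
Log2 fold change, exposed over control (horizontal axis), of the 12 member probes, with points for limma estimates and bars for 95% intervals, and a filled point for an adjusted p under 0.05. Ddit4 (2.34) is the one filled point, and the bars of Fkbp5, Tsc22d3, Dusp1, Zbtb16, Klf9 and Sgk1 lie above 0 before adjustment, while those of Nr3c1, Mt1 and Mt2 span it.

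The exposed thyroids did not share one order over the members. S539 held the highest exposed value in 6 of the 10 genes, among them Fkbp5, Tsc22d3 and Zbtb16, whereas S589 held the highest Ddit4 value. S588 held the lowest exposed value in 5 genes. The median deviation from the control mean over the 10 genes was 0.85 in S539, 0.63 in S588, 0.57 in S589 and 0.87 in S590. Among controls Ct4 held the highest value in 5 genes, with a median deviation of 0.22, and the other controls were between -0.10 and -0.03.

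**Figure D3:**
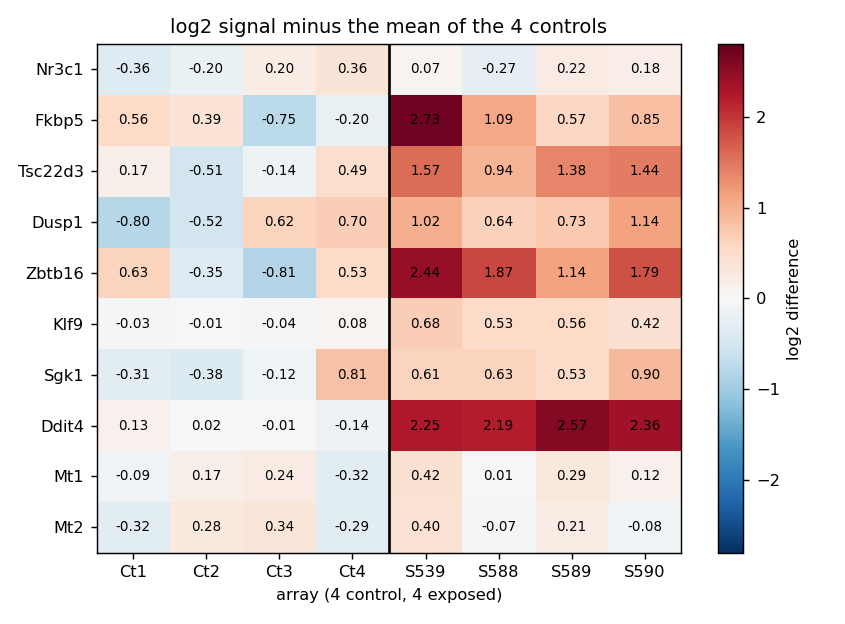
Log2 signal minus the mean of the 4 controls for each member (rows) and array (columns, 4 controls left of the line and 4 exposed thyroids right of it), as colour and number. All 4 exposed thyroids are above 0 in every row but those of Nr3c1 and Mt2, which take both signs, and the exposed values of Fkbp5 range from 0.57 to 2.73.

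The brightest RefSeq probes of the 10 members were then compared in shape over the 8 arrays, by the root mean square difference between log2 profiles centred on their mean. Such a likeness is a description, since the 8 arrays give both the group difference and the spread. The closest pair of members was Mt1 and Mt2, at 0.12, and Fkbp5 and Zbtb16 were 0.56 apart. Among 13766 other RefSeq genes whose log2 signal averaged 7 or more, Ddit4 was most like Duoxa1, a maturation factor of the thyroid's hydrogen peroxide source (0.15), Mgmt, a DNA repair enzyme (0.17), and Slc5a3, an inositol transporter (0.25). These rose by 2.39, 2.35 and 2.08 (limma adjusted p = 0.0017, 0.0013 and 0.0032). Nr3c1 was most like Mob4, Vamp4 and Pfas (0.05, 0.05 and 0.06), whose differences lay between -0.02 and 0.06. The genes nearest to Fkbp5, Wdr92, Nab2 and Krtap4-1, were farther off, at 0.38, 0.43 and 0.47, and none was called.

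Promoter sequence was looked up because the members are grouped by a shared DNA-binding receptor. The windows were the 250 bases before each RefSeq start site (GRCm38.p6), and 15 windows for 8 of the 10 members were found. They were searched on both strands for the half-site AGAACA, for the full palindromic element, which is this half-site followed by 3 free bases and by its reverse complement TGTTCT, and for the metal response core TGCACNC or TGCGCNC. The full element stood in 3 of 32851 windows of all genes (0.00913%), and 1 of the 3 belonged to Sgk1. There its 15 bases ran from 189 to 175 bases before the start, shown in capitals.
Sgk1, chr10:21993640-21993889, plus strand: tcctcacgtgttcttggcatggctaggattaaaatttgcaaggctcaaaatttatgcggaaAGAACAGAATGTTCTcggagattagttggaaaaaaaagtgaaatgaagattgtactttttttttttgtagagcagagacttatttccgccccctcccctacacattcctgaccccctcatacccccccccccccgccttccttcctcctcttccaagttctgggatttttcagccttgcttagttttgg
The half-site stood in 16.1% of all windows. Among members it was found in this and 2 more Sgk1 windows and in 1 of the 3 windows of Tsc22d3, shown with the half-site in capitals.
Tsc22d3, chrX:140600523-140600772, minus strand: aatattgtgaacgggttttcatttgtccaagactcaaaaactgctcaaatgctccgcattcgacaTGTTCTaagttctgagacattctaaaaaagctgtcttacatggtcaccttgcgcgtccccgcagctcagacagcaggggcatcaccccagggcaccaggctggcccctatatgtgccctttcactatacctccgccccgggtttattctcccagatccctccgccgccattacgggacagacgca
The windows of Ddit4, Fkbp5, Dusp1, Klf9, Mt1 and Mt2 held no half-site.
The metal response core stood at least once in 21.4% of windows and at least 3 times in 1.26%. Mt2 held 3, Mt1 held 1 and Ddit4, the called member, held 1, in capitals.
Ddit4, chr10:59951771-59952020, minus strand: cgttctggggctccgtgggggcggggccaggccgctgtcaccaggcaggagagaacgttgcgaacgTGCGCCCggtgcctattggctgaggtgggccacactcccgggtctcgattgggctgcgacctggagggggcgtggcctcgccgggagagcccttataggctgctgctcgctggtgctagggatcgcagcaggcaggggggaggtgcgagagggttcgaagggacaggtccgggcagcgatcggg
Mt2, chr8:94172368-94172617, plus strand: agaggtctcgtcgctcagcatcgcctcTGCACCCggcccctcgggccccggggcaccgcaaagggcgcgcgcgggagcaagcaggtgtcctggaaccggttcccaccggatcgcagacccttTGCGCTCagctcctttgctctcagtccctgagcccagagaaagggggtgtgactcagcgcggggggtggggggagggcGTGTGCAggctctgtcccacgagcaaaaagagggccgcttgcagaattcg
Mt1, chr8:94178839-94179088, plus strand: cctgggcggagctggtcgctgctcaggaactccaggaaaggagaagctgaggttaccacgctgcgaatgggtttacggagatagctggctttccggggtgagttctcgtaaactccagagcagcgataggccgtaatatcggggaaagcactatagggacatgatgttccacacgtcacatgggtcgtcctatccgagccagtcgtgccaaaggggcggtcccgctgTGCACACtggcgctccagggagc
A match here is a description of letters, and no match says only that these letters are not in the window.

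Other genes that glucocorticoids are known to induce were read from a list of 38. Limma called 3 of the 38, all higher, where 0.904% of RefSeq genes were called higher. Slc19a2, a thiamine transporter, rose from 9.43 ± 0.30 (SD, n = 4) to 11.83 ± 0.21, by 2.40 (adjusted p = 0.0032). Per1, a clock gene with a receptor site in its promoter, rose from 11.55 ± 0.63 to 13.70 ± 0.08, by 2.15 (adjusted p = 0.0258). Map3k6, a stress kinase, rose by 1.94 (adjusted p = 0.0432). The other 35 were not called. In the whole list 32 of 38 had a difference above 0, against 46.4% of RefSeq genes, and the median was 0.59. Every exposed thyroid was above every control for 9 genes and below for 1, against 5.44% and 6.21% of RefSeq genes. At an unadjusted p under 0.05, 14 were higher and 2 lower, against 6.47% and 8.13%. The count of called genes was 4 without Ct1, 1 without any other single array, 1 without Ct1 and Ct2 together, and 6 or 7 in 6 of the 8 other settings.

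Of 19 genes that glucocorticoids are known to repress, mostly inflammatory mediators, limma called 0. At an unadjusted p under 0.05, 6 were lower and 1 was higher, against 8.13% and 6.47% of RefSeq genes. The median of the list was -0.42. The largest fall in value was that of the chemokine Cxcl10, at -1.60 (adjusted p = 0.197), and the largest rise that of the adhesion molecule Icam1, at 0.87 (adjusted p = 0.278). Nos2, the inducible nitric oxide synthase, at -0.65 (adjusted p = 0.085), was the 1 gene called in 3 of the 8 other settings, without dim probes, with an intensity trend and with array weights (adjusted p = 0.0353 to 0.0422). These are genes of immune cells in part, and 9 of the 19 exceeded background clearly on each of the 8 arrays. The log2 of their summed signal was 13.07 and 12.88 in Ct1 and Ct2, against 12.22 and 12.34 in Ct3 and Ct4 and 12.11 to 12.25 in the exposed thyroids. The same pair of controls carried the T cell and thymocyte markers, whose part in this list was not tested. Macrophage markers had a median difference of -0.34 and were 14.11 to 14.57 in controls and 13.80 to 14.16 in exposed thyroids as a summed log2 signal.

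Targets of p53 and genes of the circadian clock were read as well, since Ddit4 also answers DNA damage and Per1 belongs to the clock. Of 20 p53 targets limma called 17, all higher, led by Gtse1 (5.01), Gdf15 (4.23), Cdkn1a (3.83), Trp53inp1 (2.49) and Mdm2 (2.32). Over all RefSeq genes 0.904% were called higher. Gtse1 was well above background in only 2 controls. The median of the list was 1.91. The count of called p53 targets was 9 without Ct2, 10 without S589, 7 without S590 and 4 without Ct1 and Ct2 together. Of 18 clock genes limma called 2, both higher, Per2 by 2.23 (adjusted p = 0.0045) and Per1 as above. Differences were above 0 in 13 of the 18, against 46.4% of RefSeq genes, with a median of 0.52. At an unadjusted p under 0.05, 8 were higher and 1 lower, against 6.47% and 8.13%. The groups lay apart in 5, all with exposed above, against 5.44%. Ciart rose most, by 3.73 (adjusted p = 0.0779), but was well above background in only 1 control. The count of called clock genes was 3 without Ct1, 1 without each of the other arrays and 0 without Ct1 and Ct2 together. Arntl, the clock's activator, differed by -1.02 (adjusted p = 0.343). The part of the p53 and clock programmes in the differences of the members and of the other inducible genes, Slc19a2 among them, was not tested. The comparison holds no arm with receptor ligand or blocker.

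**Figure D4:**
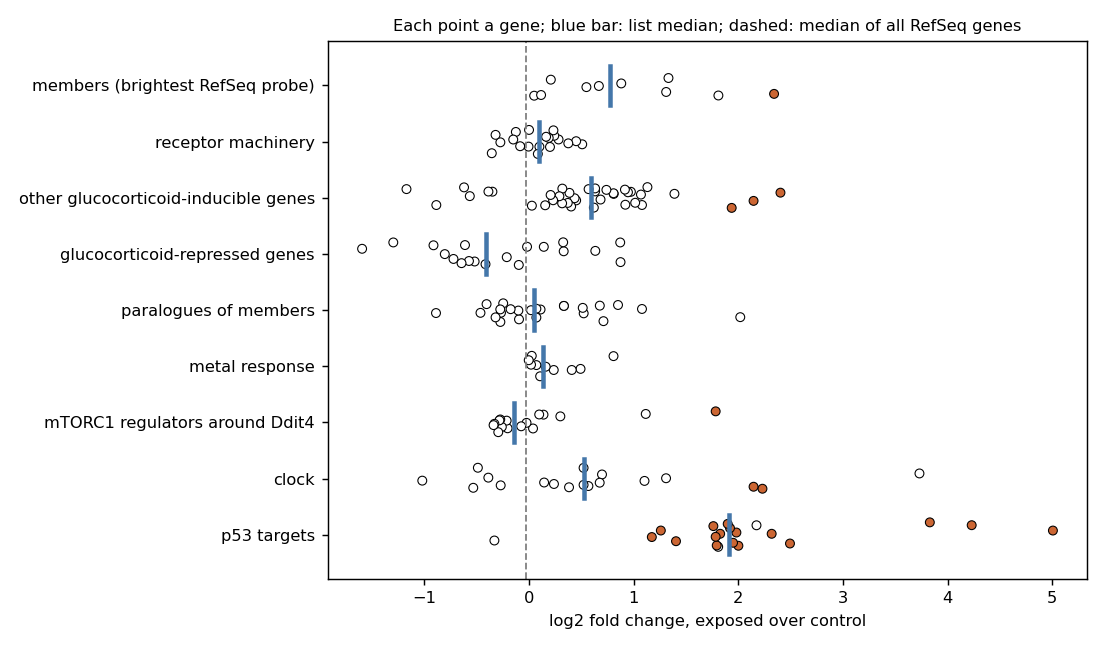
Log2 fold change, exposed over control (horizontal axis), of each gene in the members and 8 gene lists, with called genes filled, the list median as a blue bar and the median of all RefSeq genes (-0.03) as a dashed line. The medians of the members (0.77) and of the other inducible genes (0.59) lie right of the line, that of the repressed genes (-0.42) left of it, and p53 targets (1.91) hold most of the filled points.

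How many members passed the threshold depended on the processing. With the authors' deposited values, which were not background-subtracted, Ddit4, Tsc22d3, Klf9 and Zbtb16 were called (4 of 10), where 1.62% of RefSeq genes were called higher. All 4 differences stayed above 0 in this setting, and the adjusted p was 0.0478 for Zbtb16. The share of RefSeq genes called higher was 1.54% with normexp background correction, 1.62% without background subtraction, 1.75% without dim probes, 1.48% with an intensity trend, 1.42% with array weights, 1.14% with scaling to the 75th percentile and 0.904% without outlier spots, where 3, 4, 2, 3, 3, 1 and 1 members were called. Fkbp5, Sgk1, Dusp1, Nr3c1, Mt1 and Mt2 were called under none of the 8 settings.

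**Figure D5:**
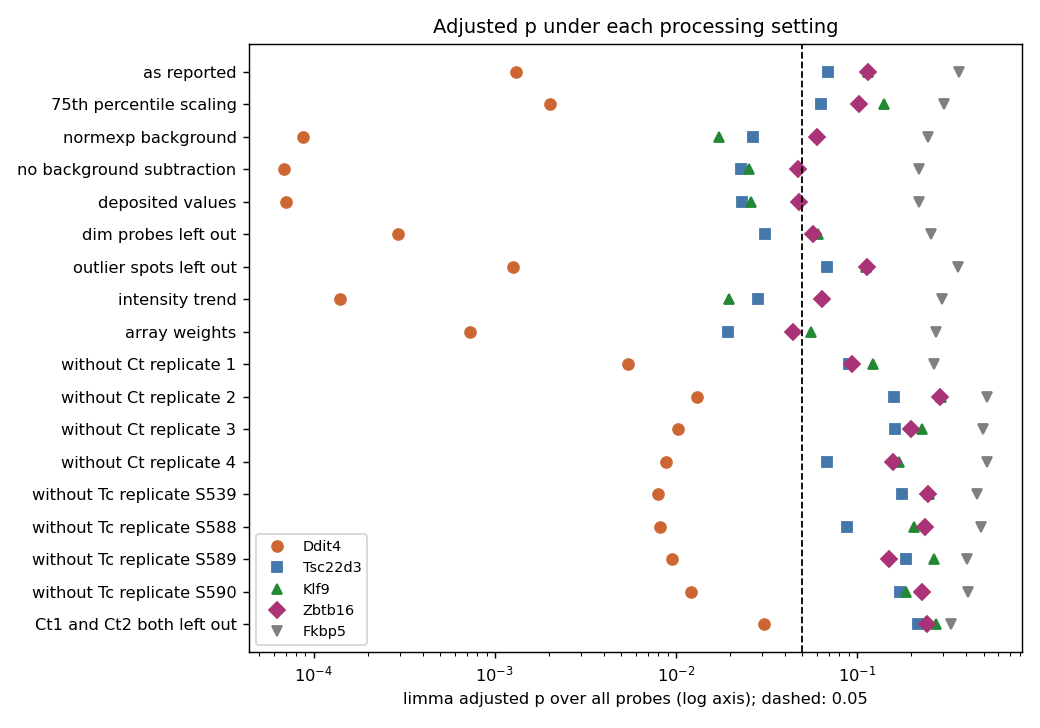
Limma adjusted p over all probes (horizontal log axis, dashed line at 0.05) of 5 members under each processing setting and with arrays left out (vertical axis). Ddit4 stays left of the line throughout, Tsc22d3, Klf9 and Zbtb16 cross it in some settings that keep all arrays, and Fkbp5 stays right of it.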

How the data were processed

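RNA of 4 control and 4 exposed mouse thyroids was measured on one-colour Agilent arrays. The authors deposited scanner output of Feature Extraction 10.7.3.1, in which each spot has an intensity before and after background subtraction, and a table of log2 values. Per the methods these were quantile-normalized in limma with an adjusted p of 0.05 as threshold. The deposited log2 values lay within 0.0378 of quantile-normalized log2 median signals without background subtraction.

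Here the log2 of the background-subtracted signal of 59305 non-control spots was quantile-normalized, and spots of a probe were averaged. The groups were compared over 55681 probes by lmFit and eBayes (R 4.3.3, limma 3.58.1) with Benjamini-Hochberg adjustment, tested beforehand on simulated data. A gene was read by its RefSeq probe of highest mean signal. From each gene list the called genes (up to 5 by size), or otherwise the largest rise and fall, are named, and further genes were named after their values were seen. Members and the 17 lists (228 genes, general knowledge) were chosen with earlier results of these data known. Probe positions are the array files' (mm9). Promoters are from RefSeq (GRCm38.p6). Limma p-values set each group difference against the spread between samples within the groups, and their precision is limited by the number of arrays.

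Alternatives were 75th percentile scaling, background correction by normexp (offset 50), no background subtraction and the deposited values. Others were leaving out dim probes or outlier spots, an intensity trend, array weights and leaving out each array. Dim probes were those well above background neither on every control array nor on every exposed array, and leaving them out kept 36135 probes. Leaving out Ct1 and Ct2 together was added after seeing the data.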

Additional observations from a re-analysis of the deposited data

How the results depend on the processing

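Of the 10 members, 1 was called higher as reported, and the count was 3 with normexp, 4 without background subtraction, 4 with the deposited values, 2 without dim probes, 3 with an intensity trend and 3 with array weights. It was 1 with scaling to the 75th percentile, without outlier spots, without Ct1 and Ct2, and without each array in turn (1 to 1). Differences of Nr3c1 changed sign to -0.008 with normexp, -0.009 without background subtraction, -0.008 with the deposited values and -0.23 without Ct1 and Ct2, where its dimmer probe was -0.14. Mt2 was -0.035 with array weights. Without single arrays Nr3c1 ranged from -0.071 to 0.168 and the second Mt1 probe from -0.767 to 0.409. The members whose exposed values all lay above the controls numbered 5 as reported, where this was so for 5.44% of RefSeq genes. They numbered 4 to 7 over the settings, with 7 under 75th percentile scaling and without Ct4. The share of RefSeq genes was not counted under those settings, so these counts cannot be set against it. The cause was not tested. Without Ct1 and Ct2, Ddit4 differed by 2.42 (limma adjusted p = 0.0308) and 89 of all probes were called in place of 435, with fewer samples, and without single arrays 100 to 481 were called. Scaling to the 75th percentile moved the median of all probes by 0.16 against 0.01 as reported. No paired analysis was possible because the groups share no replicate numbers.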

Other observations

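Paralogues of the members were read from a list of 24, of which limma called 0, with a median difference of 0.05. At an unadjusted p under 0.05, 8 were higher and 0 were lower, against 6.47% and 8.13% of RefSeq genes. The largest rise in value was that of Sgk2, a kinase related to Sgk1, at 2.02 (adjusted p = 0.158), and the largest fall that of Dusp10, a MAP kinase phosphatase like Dusp1, at -0.89 (adjusted p = 0.509). In Tsc22d1, Klf2, Klf6, Zbtb32, Dusp16 and Sgk2, 6 of the 24, every exposed thyroid lay above every control. This was so for 5.44% of RefSeq genes.

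Marker lists of other cell types held no called gene, where 1.2% of RefSeq genes were called. These were lists of thyrocytes (median -0.30), endothelium (0.04), fibroblasts (-0.46), adipocytes (0.39), B cells (-0.41), skeletal muscle (-1.01) and C cells and parathyroid (0.23). The thyrocyte list held neither Duoxa1, called above, nor the sodium/iodide symporter gene Slc5a5, which the study reports as downregulated. Every exposed thyroid lay below every control in 1 thyrocyte gene and 2 fibroblast genes, against 6.21% of RefSeq genes. Skeletal muscle markers spanned 20.18 to 21.19 in controls and 19.16 to 20.86 in exposed thyroids as the log2 of their summed signal.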
